A study of Mus musculus and Rattus norvegicus with 14 samples.

Results

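The 7 genes described here make the machinery of MHC class II antigen presentation in the mouse: the peptide-binding chains H2-Aa, H2-Ab1 and H2-Eb1, the peptide-exchange chains H2-DMa and H2-DMb1, the invariant chain Cd74 and the transcriptional coactivator Ciita. They were chosen by gene symbol among the 54532 genes of the mouse table, by no cut on their values but with earlier results of these data known. All 7 were found and all 7 were among the 13000 genes tested, which had at least 1 FPKM (fragments per kilobase of gene, scaled to library size) in at least 3 of 12 libraries. Messenger RNA was sequenced from heart tissue in 4 groups of 3 libraries, labelled LQ-40, SQ-3, Model and Sham. The first pair of names are codes for compounds, described by the study as similar in structure, whose effect on fibrosis of the heart muscle it set out to compare. The labels give no dose, duration, model procedure, strain, age or sex. Nor do they say whether hearts given a compound had also gone through the model procedure, or whether libraries of 1 group were taken from different animals; p-values therefore measure spread between libraries only, and that spread could be technical.

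MHC class II molecules are pairs of an alpha and a beta chain that carry peptides from engulfed material to the cell surface, where CD4 T cells read them. Dendritic cells, B cells and many macrophages make them at all times, and interferon gamma can bring them out in other cells, endothelium included. The invariant chain fills the groove of new molecules on the way to the endosome, proteases trim it away, and the H2-DM pair exchanges what remains for a peptide. Ciita does not touch DNA itself: it docks on factors that sit on the X and Y boxes shared by class II promoters.

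Those boxes were looked for in the promoter windows of RefSeq, 250 bases before to 50 after each gene start, on build GRCm38.p6 (mm10). The X box was searched for as AG, any 2 bases, AC, any base and then GATG, and the Y box as GATTGG, each on both strands; the 2 matches do not overlap in any stretch printed here. Across 32851 windows of the same length the X letters occurred in 0.968%, the Y letters in 16.1% and both in 0.149%. H2-Eb1 and H2-DMb1 held both, with 21 bases between the plus-strand boxes in H2-Eb1 and 22 in H2-DMb1. The H2-Aa window held the Y letters and not these X letters, and 1 of 2 windows of H2-DMa held the Y letters; H2-Ab1, Cd74 and Ciita had no entry. The stretches are printed because they place the shared boxes beside the genes whose levels follow, with the matched X and Y letters of either strand in capitals; the last capitals in H2-Eb1 are a further match to the Y letters on the minus strand. The H2-Eb1 stretch is chr17:34305737-34305856 on the plus strand, the H2-DMb1 stretch is chr17:34153086-34153115 on the plus strand and covers the X box alone, and the H2-Aa stretch is chr17:34287834-34287953 on the minus strand.
H2-Eb1: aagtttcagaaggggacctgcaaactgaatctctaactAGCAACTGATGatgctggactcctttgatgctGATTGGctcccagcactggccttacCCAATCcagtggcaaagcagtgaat
H2-DMb1: aggtttacctAGTAACTGATGatgctaggc
H2-Aa: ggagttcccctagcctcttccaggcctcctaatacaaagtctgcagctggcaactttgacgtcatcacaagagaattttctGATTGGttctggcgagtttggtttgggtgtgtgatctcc
By the deposited gene coordinates H2-DMb1 starts at 34153072, upstream of the RefSeq start, so its printed stretch lies inside the annotated gene. A match is a description of letters and says nothing of binding in these hearts.

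The libraries held 13085370 to 16698987 reads assigned to genes. Values below are scaled FPKM, the deposited FPKM divided by a library factor between 0.979 and 1.03. Markers of heart muscle were present throughout: none of the 10 cardiomyocyte markers was at 0, and their summed level was 7237 to 14504 scaled FPKM in LQ-40, 11075 to 14458 in SQ-3, 8978 to 10664 in Model and 17688 to 19340 in Sham libraries.

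The group means in scaled FPKM stood in one order for all 7 genes, LQ-40 highest, then Model, then SQ-3, and Sham lowest. Model library 1 was the highest Model library for all 7 genes, so the place of Model above SQ-3 leans on it. For H2-Aa and H2-Eb1, on the log2 scale that was tested, SQ-3 stood above Model (log2 0.43 and 1.87). Model stood below Sham for H2-Eb1 (log2 -1.14). For H2-Ab1, H2-DMa, H2-DMb1, Cd74 and Ciita, SQ-3 against Model also turned above 0 in some fits that left out 1 library. The highest log2 changes there were 0.34, 0.18, 0.14, 0.37 and 0.058. In all 7 genes the spread within a group was above the median of all tested genes, and few differences passed a test. The ranges of neighbouring groups overlapped for most genes, and no step between neighbours in that order (LQ-40 and Model, SQ-3 and Model, SQ-3 and Sham) was called for any of the 7. In tissue of mixed cells, a change in the number of class II-bearing cells and a change in transcript per cell cannot be told apart. Cd74, the invariant chain (chromosome 18, 60803848 to 60812646, mm10), was the most abundant per kilobase, with group means of 338 ± 190 scaled FPKM in LQ-40, 215 ± 71.4 in SQ-3, 237 ± 130 in Model and 106 ± 72.6 in Sham hearts (± SD of 3 libraries per group). Ciita was the least abundant, with 1.42 ± 0.828 in LQ-40, 0.729 ± 0.217 in SQ-3, 0.899 ± 0.430 in Model and 0.369 ± 0.140 in Sham hearts.

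The A molecule, the class II pair that all common laboratory strains express, is built from H2-Aa and H2-Ab1. H2-Aa, the alpha chain (chromosome 17, 34282744 to 34287827), had 16.3, 32.7 and 70.1 scaled FPKM in LQ-40 libraries 1 to 3, 15.0, 17.2 and 26.5 in SQ-3, 44.6, 7.18 and 7.84 in Model and 23.7, 9.71 and 4.35 in Sham libraries. LQ-40 library 3 and Model library 1 were the highest, Sham library 3 the lowest, and every pair of groups overlapped. H2-Ab1, the beta chain (chromosome 17, 34263209 to 34269418), had 18.1, 37.2 and 78.9 scaled FPKM in LQ-40, 16.3, 21.4 and 30.6 in SQ-3, 37.99, 17.5 and 16.9 in Model and 21.7, 7.58 and 5.08 in Sham libraries. LQ-40 library 3 was the highest and Sham library 3 the lowest, and every pair of groups overlapped.

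H2-Eb1, the beta chain of the E molecule (chromosome 17, 34305877 to 34316199), had 14.3, 61.3 and 70.7 scaled FPKM in LQ-40, 22.3, 33.9 and 45.6 in SQ-3, 133, 0.904 and 2.03 in Model and 37.1, 22.2 and 8.41 in Sham libraries. The Model group held both the highest library and the lowest pair of the whole set, 147-fold apart at the extremes. These rest on 2711 reads in Model library 1 and on 16 and 41 reads in Model libraries 2 and 3.

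The H2-DM pair removes the last invariant chain fragment and edits the peptides. H2-DMa (chromosome 17, 34135182 to 34139101) had 4.85, 10.7 and 16.5 scaled FPKM in LQ-40, 5.65, 5.25 and 8.31 in SQ-3, 10.4, 5.75 and 5.10 in Model and 6.41, 2.26 and 1.77 in Sham libraries. H2-DMb1 (chromosome 17, 34153072 to 34160230) had 3.07, 3.10 and 10.3 scaled FPKM in LQ-40, 1.48, 1.84 and 1.75 in SQ-3, 3.33, 1.44 and 1.42 in Model and 1.42, 0.500 and 0.211 in Sham libraries. All LQ-40 libraries of H2-DMb1 lay above all SQ-3 and all Sham libraries, while H2-DMa overlapped between every pair of groups. H2-DMb1 is uncertain because its near-identical neighbour H2-DMb2 can share reads with it, and only 4 to 27 reads stood behind its Sham values.

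Cd74 had 136, 368 and 511 scaled FPKM in LQ-40, 169, 179 and 297 in SQ-3, 384, 135 and 192 in Model and 189, 79.8 and 50.8 in Sham libraries. Ciita (chromosome 16, 10480059 to 10528418) had 0.478, 1.77 and 2.02 scaled FPKM in LQ-40, 0.565, 0.647 and 0.975 in SQ-3, 1.39, 0.589 and 0.719 in Model and 0.531, 0.280 and 0.296 in Sham libraries. For both genes LQ-40 libraries 2 and 3 and Model library 1 stood above the rest, and LQ-40 library 1 lay within the Sham range. The 3 high libraries were the only ones in which Ciita reached the 1 FPKM of the filter. It was therefore tested only through libraries where it was high, which limits its comparisons. Ciita overlaps Dexi on the opposite strand and no source used here says whether counting was stranded, so its reads are uncertain; Dexi itself averaged 6.49 ± 1.26 scaled FPKM in LQ-40, 7.63 ± 0.885 in SQ-3, 7.44 ± 0.316 in Model and 7.17 ± 0.696 in Sham hearts (± SD of 3 libraries per group).

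**Figure D1:**
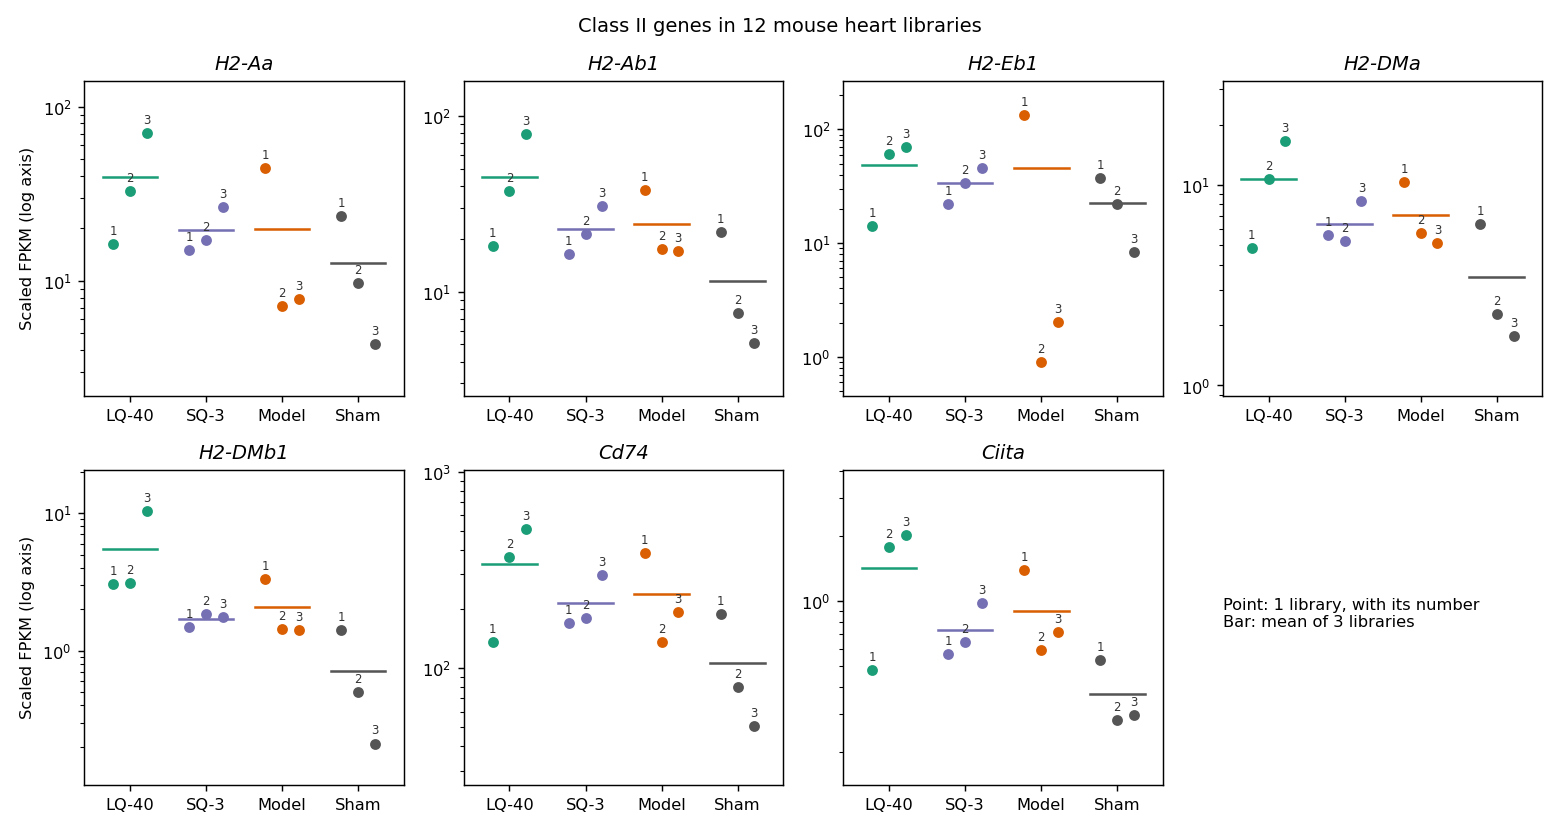
Scaled FPKM (log axis) of the 7 class II genes in each library, numbered within its group, with a bar at each group mean. LQ-40 library 3 is highest for 6 genes and Model library 1 for H2-Eb1, where Model libraries 2 and 3 lie at 0.904 and 2.03.

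The same libraries stood high for gene after gene. LQ-40 library 3 was the highest library for 6 of the 7 genes and Model library 1 for H2-Eb1. These 2 libraries and LQ-40 library 2 took the top 3 places for all 7 genes. Sham library 3 was among the lowest 3 for all 7, and Sham library 2 for 5 of them. The high libraries also stood apart in other measures. LQ-40 library 3 and Model library 1 had the lowest summed cardiomyocyte markers (7237 and 8978 scaled FPKM), the highest summed markers of fibroblasts (4341 and 3821) and mitochondrial read shares of 11.1% and 10.8%, against 14.2% to 23.6% in the other 10 libraries. With LQ-40 library 2 they had the highest sums of pan-leukocyte markers (148, 113.5 and 101 in LQ-40 3, Model 1 and LQ-40 2) and of T lymphocyte markers (17.0, 15.6 and 9.51). The part of these measures in the class II values was not tested. Across the 12 libraries Pearson correlations of log2(scaled FPKM + 1) between the members were 0.84 to 0.99 in the 15 pairs without H2-Eb1 (median 0.91) and 0.49 to 0.84 in the 6 pairs with it. With each group mean subtracted, the ranges were 0.68 to 0.98 and 0.66 to 0.90. These are descriptions: the points share their libraries and groups.

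Spread within a group was above the median of all tested genes for each of the 7. The pooled within-group SD on the log2(scaled FPKM + 1) scale was 1.88 for H2-Eb1, in place 7 among 13000 genes, 1.05 for H2-Aa in place 92 and 0.34 for Ciita in place 2349. The median of all tested genes was 0.19. Among genes of like level, Cd74 with an SD of 0.82 had the highest spread of 151 genes, whose median was 0.30. By the same measure Csf1r, a receptor of macrophages, had an SD of 0.20, and Ptprc, the pan-leukocyte surface protein CD45, 0.36, above the 0.34 of Ciita. Single genes do not stand for all leukocyte markers. The SE of a limma log2 change, which also reflects spread, ran from 0.15 for Mertk to 0.57 for Timd4 among macrophage markers. Among the 7 class II genes it ran from 0.26 for Ciita to 1.32 for H2-Eb1, so the ranges overlapped.

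**Figure D2:**
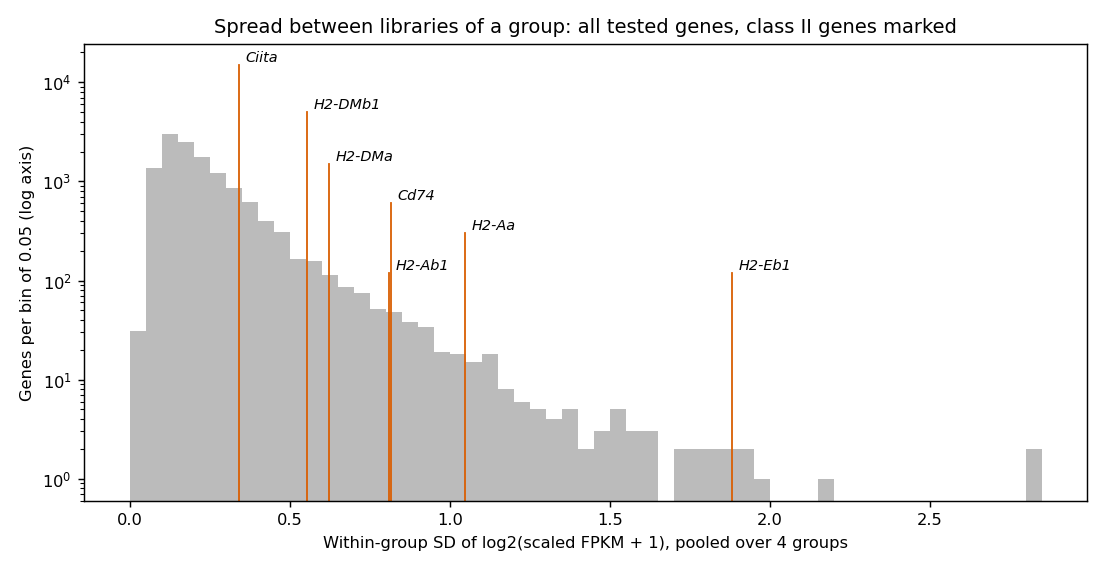
Number of genes (log axis) by within-group SD of log2(scaled FPKM + 1), pooled over 4 groups, with the 7 class II genes marked by lines. H2-Eb1 at 1.88 lies near the right end, against a median of 0.19 for all 13000 genes.

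Model hearts set against Sham hearts ask what the disease model did. None of the 7 genes was called by limma at an adjusted p under 0.05, in a comparison where 20.9% of all tested genes rose, 18% fell and 38.9% changed in either direction. At an unadjusted p under 0.05 there were 0 of 7, against 49% of all tested genes, and 0 were called when limma-voom was run on recovered reads. The median log2 change of the 7 was 0.85, beside 0.03 over all tested genes, and 6 of 7 estimates were above 0. H2-Ab1 was 2.22-fold higher in the estimate (log2 1.15, SE 0.57, limma adjusted p = 0.133), Cd74 2.34-fold (log2 1.22, SE 0.58, adjusted p = 0.117) and H2-DMa 1.91-fold (log2 0.94, SE 0.44, adjusted p = 0.113). H2-DMb1 (by a margin under the digits printed above) and Ciita had no overlap between Model and Sham libraries, 2 of 7, where 29.8% of all tested genes were higher with no overlap. Ciita had passed the filter only through its high libraries, Model library 1 among them. Sham library 1, the highest Sham library for all 7 genes, decides part of this: without it limma called Cd74 (adjusted p = 0.0490), H2-Ab1 (0.0446) and H2-DMa (0.0371).

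H2-Eb1 went its own way in the Model group. Its log2 change against Sham was -1.14 (SE 1.32, limma adjusted p = 0.516), with a 95% interval of -4.05 to 1.77. Without Model library 1 it fell by 3.08 on the log2 scale (adjusted p = 0.0164), and without Model libraries 2 and 3 the estimate was 2.73 in the other direction (adjusted p = 0.0813), an alternative chosen after seeing the values. The ratio of H2-Eb1 to H2-Ab1, per kilobase, was 3.50 in Model library 1, 0.0516 in library 2 and 0.120 in library 3. In the other 3 groups it was 0.789 to 1.65 in LQ-40, 1.37 to 1.59 in SQ-3 and 1.66 to 2.93 in Sham libraries. Of the reads of both genes together, 3.60% fell on H2-Eb1 in Model library 2 (exact 95% interval 2.07 to 5.77) and 7.98% in library 3 (5.79 to 10.7), against 71.7% (70.2 to 73.1) in Model library 1; these intervals cover counting error only. H2-Aa moved with it, at 0.409 and 0.464 of H2-Ab1 in Model libraries 2 and 3, against 0.807 to 1.28 in the other 10 libraries. Cd74 over H2-Ab1 did not set them apart, with 6.48 to 11.3 over all 12 libraries.

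A second break in the ratios lay in the LQ-40 group. H2-Ea-ps, the alpha chain gene of the E molecule, which the annotation calls a pseudogene (chromosome 17, 34342933 to 34344643), had 343, 19 and 1859 reads in LQ-40 libraries 1 to 3, 13 to 15 in SQ-3, 0 to 28 in Model and 0 to 9 in Sham libraries. In scaled FPKM these were 38.6, 1.74 and 168 in LQ-40, and at most 2.39 in the 10 libraries other than LQ-40 1 and LQ-40 3. The same 2 libraries had the highest ratios of H2-DMb1 to H2-DMb2, 3.09 and 3.03, against 0.271 to 1.92 in the other 10. They also had the highest levels of the class I gene H2-K1, 104 and 196 scaled FPKM, against 27.9 to 72.4 elsewhere. As background, inbred strains differ in the sequence of this locus, and some make no E alpha chain, among them the strain behind the reference genome. The strain of these animals is not in the labels, and its part in these values was not tested.

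**Figure D3:**
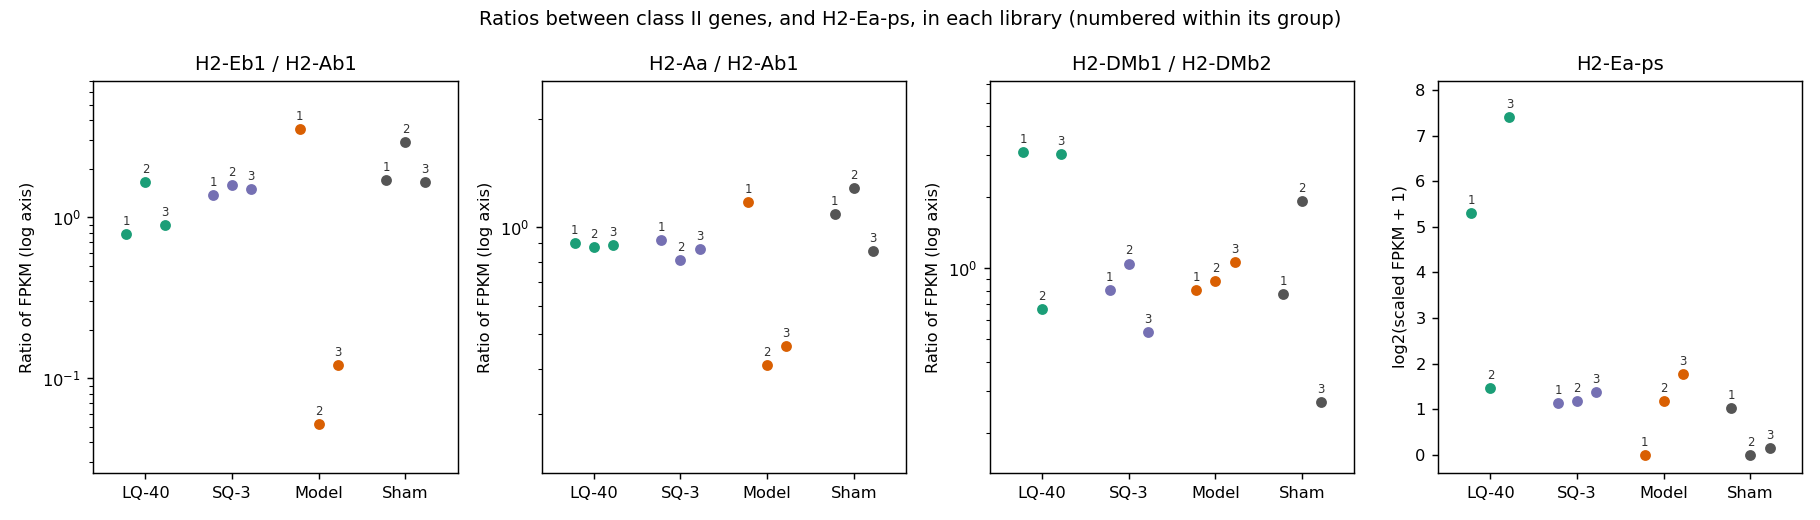
Ratios of FPKM (log axes) between class II genes and log2(scaled FPKM + 1) of H2-Ea-ps in each numbered library. Model libraries 2 and 3 lie at 0.0516 and 0.120 for H2-Eb1 over H2-Ab1, and LQ-40 libraries 1 and 3 stand above all others for H2-Ea-ps.

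LQ-40 hearts against Sham hearts was the comparison with called members. H2-DMb1 averaged 5.50 ± 4.19 scaled FPKM (SD, n = 3 each) in LQ-40 and 0.709 ± 0.629 in Sham hearts and rose 3.50-fold on the log2(scaled FPKM + 1) scale (log2 1.81, SE 0.40, limma adjusted p = 0.0184). H2-Ab1 averaged 44.7 ± 31.1 in LQ-40 and 11.5 ± 8.99 in Sham hearts and rose 3.66-fold (log2 1.87, SE 0.57, adjusted p = 0.0489). These are 2 of 7 called, where 9.83% of all tested genes rose, 5.93% fell and 15.8% changed in either direction, and 5 of 7 had an unadjusted p under 0.05, where 35.7% of all tested genes did in either direction. The median log2 change was 1.62 over the 7 and 0.02 over all tested genes, and all 7 estimates were above 0. Only H2-DMb1 had no overlap of libraries, 1 of 7 beside 19.2% of all tested genes higher with no overlap. Cd74 had a log2 change of 1.67 (adjusted p = 0.0686), H2-DMa 1.39 (0.0546), Ciita 0.76 (0.0660), H2-Aa 1.62 (0.140) and H2-Eb1 1.01 (0.611).

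The number called in LQ-40 against Sham depends on single libraries. Without LQ-40 library 1, limma called 5 of 7, all but H2-Aa and H2-Eb1; without LQ-40 library 2 or library 3 it called H2-DMb1 alone. Without Sham library 1 it called 3, H2-Ab1, H2-DMa and H2-DMb1, and without Sham library 2 or library 3 it called 0. The adjusted p of H2-Ab1 was 0.0100 to 0.188 and that of H2-DMb1 0.00571 to 0.0575 over these 6 fits. Without both LQ-40 libraries 1 and 3, those high in H2-Ea-ps, neither gene was called (H2-Ab1 adjusted p = 0.111, H2-DMb1 0.0651) and Ciita was, a fit chosen after seeing the values in which the lone LQ-40 library is assumed to vary like the other groups. With the scaled FPKM of H2-DMb1 and H2-DMb2 summed, the pair rose (log2 1.82, limma adjusted p = 0.0252).

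SQ-3 hearts against Sham hearts had 0 of 7 called by limma, where 4.86% of all tested genes rose, 1.82% fell and 6.68% changed in either direction; 0 had an unadjusted p under 0.05, beside 28% of all tested genes, and limma-voom called 0. All 7 estimates were above 0, with a median log2 change of 0.83 beside 0.01 over all tested genes. H2-Ab1 had a log2 change of 1.12 (SE 0.57, limma adjusted p = 0.223) and Cd74 1.17 (SE 0.58, adjusted p = 0.210). H2-DMb1 and Ciita libraries did not overlap, 2 of 7 beside 20.2% of all tested genes, and Ciita lay under the 1 FPKM of the filter in every library of both groups. The 3 comparisons with Sham share its 3 libraries, so their estimates are not independent of each other.

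The compounds were also set against Model hearts. For LQ-40 against Model, limma called 0 of 7, where 0.185% of all tested genes rose, 0.485% fell and 0.669% changed in either direction. At an unadjusted p under 0.05, which 12.1% of all tested genes had, there was 1 member, H2-DMb1 (log2 0.96, SE 0.40, adjusted p = 0.354), and limma-voom called 0. None of the 7 had LQ-40 libraries all above the Model libraries, beside 7.28% of all tested genes. The median log2 change was 0.72 over the 7 and 0.01 over all tested genes. H2-Eb1 had a log2 change of 2.15 (SE 1.32, adjusted p = 0.563) and was called without Model library 1 (log2 4.09, adjusted p = 0.0451). For SQ-3 against Model, limma called 0 of 7, where 0.0769% of all tested genes rose, 0.269% fell and 0.346% changed in either direction; 0 had an unadjusted p under 0.05, beside 14.2% of all tested genes, and limma-voom called 0. None of the 7 had SQ-3 libraries all above the Model libraries, beside 12.1% of all tested genes. The 7 estimates had a median of -0.05, beside -0.01 over all tested genes, and ran from -0.13 for H2-DMb1 to 1.87 for H2-Eb1. The interval for Cd74 was -1.33 to 1.23, so smaller changes of either sign could not be detected at this spread.

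LQ-40 and SQ-3 make 1 pair of compounds, and their doses are not in the labels. Limma called 0 of 7 between them, as of all tested genes (0%), 1 member had an unadjusted p under 0.05, beside 3.03% of all tested genes, and limma-voom called 0. All 7 estimates were higher in LQ-40, with a median log2 change of 0.54 beside 0.00 over all tested genes. H2-DMb1 had the only non-overlapping libraries, 1 of 7 beside 3.62% of all tested genes, with a log2 difference of 1.09 (95% interval 0.22 to 1.97, adjusted p = 1.00). The intervals were -0.51 to 2.02 for H2-Ab1, -0.78 to 1.78 for Cd74, -0.15 to 1.00 for Ciita and -2.63 to 3.19 for H2-Eb1. A test for any difference among the 4 groups, limma's moderated F, called 1 of 7, H2-DMb1 (adjusted p = 0.0379), where 21.6% of all tested genes were called.

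**Figure D4:**
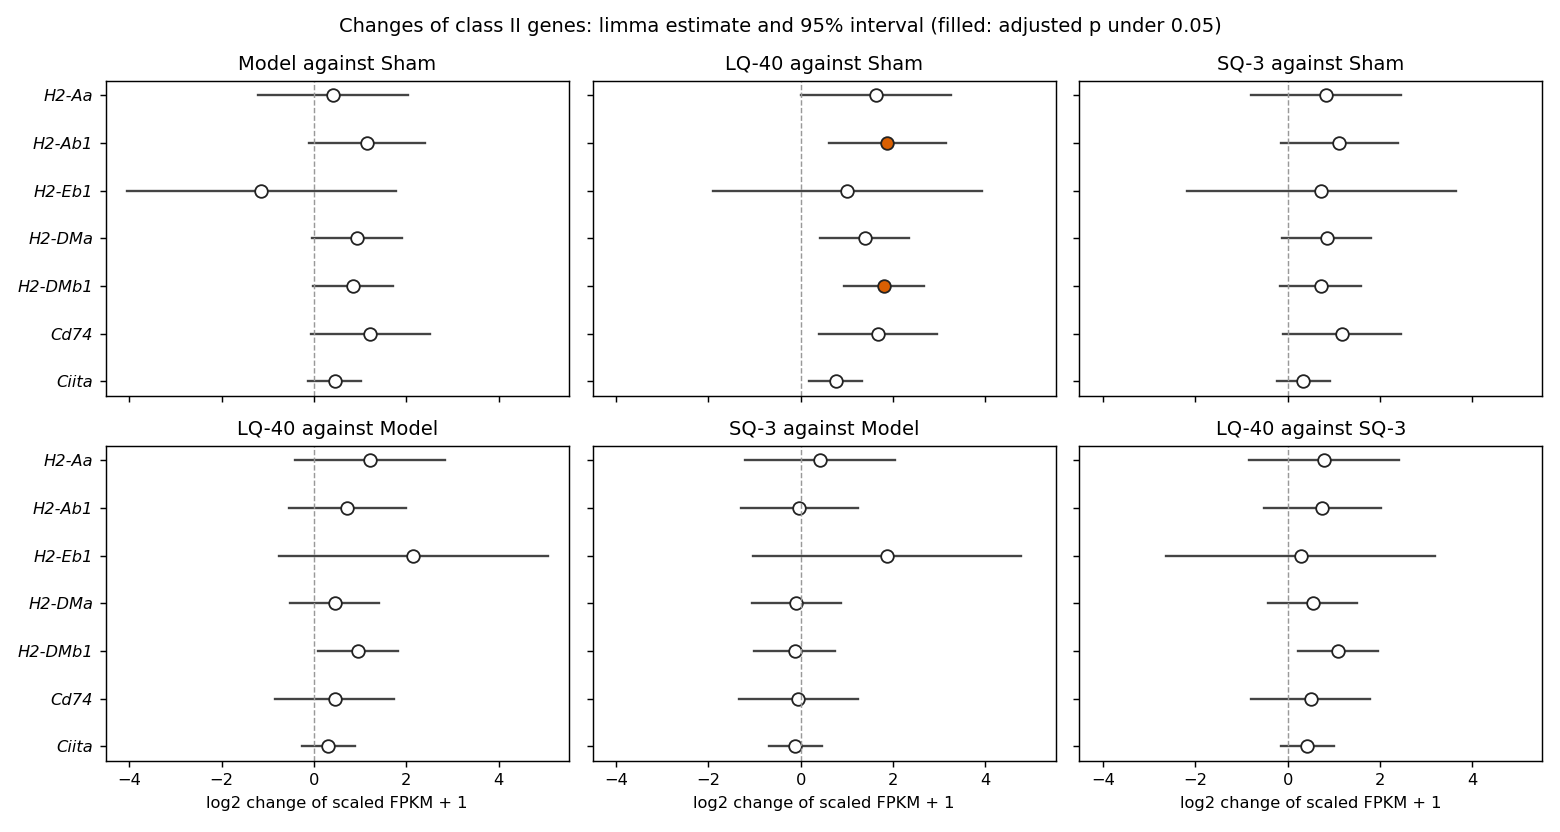
Log2 change of scaled FPKM + 1 with its 95% interval from limma for the 7 class II genes in 6 comparisons; filled points had an adjusted p under 0.05. H2-Ab1 and H2-DMb1 in LQ-40 against Sham are the filled points, and H2-Eb1 has the widest interval in each panel.

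Of 10 tested genes of antigen processing, 5 rose and 0 fell in Model against Sham hearts, where 20.9% of all tested genes rose and 18% fell. The list holds proteases and other factors, among them the ligase March1 and the protease inhibitor Cst3, which was among those that rose. The median log2 change was 0.53 beside 0.03 over all tested genes. Cst3, cystatin C, an inhibitor of these proteases, had a mean scaled FPKM of 969.9 ± 115 (SD, n = 3 each) in Model and of 389 ± 28.4 in Sham hearts (log2 1.31, limma adjusted p = 0.00733). Ifi30, the thiol reductase that opens disulphide bonds of antigens, averaged 28.9 ± 4.10 in Model and 13.6 ± 0.919 in Sham hearts (log2 1.02, adjusted p = 0.00691). The protease Ctsb rose (log2 0.48, adjusted p = 0.0102), and these 3 were called whichever single library was left out, while Ctsl and Lgmn, also called, were not (adjusted p up to 0.0807 and 0.107). Ctss, the main protease of the invariant chain in antigen-presenting cells, averaged 76.9 ± 15.1 in Model and 38.9 ± 9.98 in Sham hearts, not called (log2 0.98, adjusted p = 0.0526). March1, a ligase that turns over surface class II, averaged 1.497 ± 0.218 in Model and 0.923 ± 0.176 in Sham hearts (adjusted p = 0.117). In LQ-40 against Sham 3 of 10 were higher, Ctsb, Ifi30 and Lgmn, beside 9.83% of all tested genes. None of the 3 was called in every fit that left out 1 library. In SQ-3 against Sham 0 of 10 were called, where 4.86% of all tested genes rose. There 4 had an unadjusted p under 0.05, beside 28% of all tested genes.

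Factors on the X and Y boxes showed small changes. Of 10 tested partners of Ciita, 2 rose and 1 fell in Model against Sham hearts, with a median log2 change of 0.01; over all tested genes 20.9% rose and 18% fell, so these shares were near the background. Nfya, which binds the Y box within NF-Y, had a mean of 4.43 ± 1.08 scaled FPKM in Model hearts and 2.32 ± 0.161 in Sham hearts (log2 0.69, limma adjusted p = 0.0136; 0.0578 without Model library 1). Creb1 rose (log2 0.36, adjusted p = 0.0274; up to 0.0878 with 1 library left out), and Kat2b, an acetyltransferase that works with Ciita, fell by 0.47 on the log2 scale (adjusted p = 0.00340). The X box factor Rfx5, whose loss abolishes class II expression in people, averaged 1.67 ± 0.237 in LQ-40, 1.56 ± 0.196 in SQ-3, 1.45 ± 0.0751 in Model and 1.38 ± 0.117 in Sham hearts and was called in none of the 6 comparisons. In LQ-40 against Sham and in SQ-3 against Sham, 1 of 10 was called, Kat2b, which fell by 0.43 and by 0.37 on the log2 scale and was called in 3 of 6 and 0 of 6 fits that left out 1 library (limma adjusted p up to 0.0552 and 0.109).

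Interferon gamma switches Ciita on through a receptor of a pair of chains and the factor Irf1, among others. Irf1 fell by 1.08 on the log2 scale in Model against Sham hearts (limma adjusted p = 0.00533), a call made whichever single library was left out. Ifngr2, a receptor chain, fell by 0.55 (adjusted p = 0.0274) and Ifngr1, the other chain, rose by 0.60 (adjusted p = 0.0278), both losing the call in some fits without 1 library. Ifng itself had 0 to 4 reads per library and was not tested.

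Genes of MHC class I presentation, which shows peptides made inside the cell to CD8 T cells, were mostly lower than in Sham hearts. Of 17 tested, 12 fell and 2 rose in Model against Sham hearts (median log2 change -1.04), 9 fell in LQ-40 against Sham (median -0.51) and 9 fell in SQ-3 against Sham (median -0.67), with 0 rising in either; over all tested genes 18%, 5.93% and 1.82% fell in these comparisons. Of the calls, 12 of 14, 2 of 9 and 5 of 9 were made in every fit that left out 1 library. Nlrc5, the coactivator that does for class I what Ciita does for class II, averaged 2.40 ± 0.762 scaled FPKM in LQ-40, 1.34 ± 0.404 in SQ-3, 0.953 ± 0.634 in Model and 6.88 ± 1.49 in Sham hearts (± SD of 3 libraries per group). It fell by 2.04 on the log2 scale in Model against Sham (limma adjusted p = 0.000409), as did the peptide transporter Tap1 (by 2.03, adjusted p = 0.000411) and the immunoproteasome subunit Psmb8 (by 1.77, adjusted p = 0.000444). The log2(scaled FPKM + 1) of Ciita minus that of Nlrc5 was -0.02 ± 0.19 in Model and -2.51 ± 0.32 in Sham hearts, a difference of 2.50. The libraries did not overlap. The two-sided exact permutation p was 0.1, the smallest that 3 against 3 allows, and the pair was chosen after its values were seen. In LQ-40 and in SQ-3 against Sham the difference was 1.98 and 2.09, again with no overlap and an exact permutation p of 0.1.

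Co-stimulation, the second signal that T cells need beside a class II peptide, was mixed. In Model against Sham hearts 2 of 7 tested genes rose and 2 fell, where 20.9% of all tested genes rose and 18% fell. Cd274, the inhibitory ligand PD-L1, had 3.47, 6.07 and 3.62 scaled FPKM in LQ-40, 2.67, 2.30 and 2.78 in SQ-3, 1.83, 1.05 and 0.792 in Model and 16.4, 12.6 and 21.8 in Sham libraries. Its Sham libraries lay above all others, and it fell by 3.01 on the log2 scale in Model against Sham (limma adjusted p = 3.49e-05). It was also the only listed gene called in LQ-40 against Model, where it was 2.41-fold higher (log2 1.27, adjusted p = 0.0345; up to 0.164 with 1 library left out). Icam1, an adhesion molecule of the T cell contact, rose in Model against Sham (log2 0.92, adjusted p = 0.0120), and without Model library 1 its adjusted p was 0.0521. Cd80 rose and Cd28 fell (adjusted p = 0.0338 and 0.0440), neither called in any fit that left out 1 library. Cd86, a partner ligand of Cd80, averaged 2.47 ± 0.602 scaled FPKM in LQ-40, 1.93 ± 0.201 in SQ-3, 2.56 ± 0.461 in Model and 1.90 ± 0.374 in Sham hearts.

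The make-up of the tissue by its markers differed widely from Sham hearts. All 9 fibroblast markers tested rose in LQ-40, in SQ-3 and in Model against Sham (3, 1 and 8 of them called in every fit that left out 1 library), with summed levels of 1264 to 4341 scaled FPKM in LQ-40, 1964 to 2576 in SQ-3, 3567 to 3821 in Model and 566 to 687 in Sham libraries. Of 10 cardiomyocyte markers, 3 fell in LQ-40, 1 in SQ-3 and 9 in Model against Sham, of which 0, 0 and 5 were called in every such fit. In these comparisons 9.83%, 4.86% and 20.9% of all tested genes rose, and 5.93%, 1.82% and 18% fell. Summed pan-leukocyte markers were higher in every library outside the Sham group than in any Sham library. All 8 pan-leukocyte markers were detected, and their summed level was 69.6 to 148 scaled FPKM in LQ-40, 66.6 to 87.9 in SQ-3, 73.8 to 113.5 in Model and 35.5 to 49.97 in Sham libraries. Of these 8, limma called 5 higher in LQ-40 against Sham, 1 in SQ-3 against Sham and 5 in Model against Sham, with 0 lower, where 9.83%, 4.86% and 20.9% of all tested genes rose; with 1 library left out, 2, 0 and 2 of these were called every time. Macrophage markers, 19 genes, summed to 904 to 1748 in LQ-40, 773 to 1206 in SQ-3, 890.4 to 1284 in Model and 438 to 654 in Sham libraries; 9 were higher in LQ-40 against Sham, 3 in SQ-3 against Sham and 9 in Model against Sham, where Fcgr1 fell; of these 9, 3 and 10 calls, 2, 0 and 6 were made in every fit that left out 1 library. Csf1r averaged 36.6 ± 4.86 scaled FPKM in LQ-40, 29.8 ± 5.22 in SQ-3, 33.1 ± 4.74 in Model and 15.6 ± 1.14 in Sham hearts. None of these lists, nor any below, held a marker at 0 in every library, and their part in the class II values was not tested.

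Among dendritic cell markers, 14 genes of which 6 were tested, summed levels were 13.0 to 25.9 scaled FPKM in LQ-40, 13.2 to 15.7 in SQ-3, 12.7 to 20.7 in Model and 8.30 to 11.1 in Sham libraries. Cd209a, a lectin of monocyte-derived dendritic cells, averaged 1.70 ± 1.12 in LQ-40, 0.972 ± 0.191 in SQ-3, 1.76 ± 0.841 in Model and 0.114 ± 0.0761 in Sham hearts, and rose in Model against Sham (log2 1.26, limma adjusted p = 0.00745) and in LQ-40 against Sham (log2 1.19, adjusted p = 0.0250). In all, 3 of 6 rose and 1, Clec9a, fell in Model against Sham, and 1 of 6 rose in LQ-40 against Sham, beside the 20.9% and 9.83% of all tested genes that rose. With 1 library left out, Cd209a in Model against Sham was the only one of these called every time; in LQ-40 against Sham it was called in 1 of 6 fits (limma adjusted p up to 0.0886). B lymphocyte markers, 11 genes of which 6 were tested, summed to 119 to 239.8 in LQ-40, 31.7 to 411 in SQ-3, 31.3 to 122 in Model and 15.3 to 28.1 in Sham libraries, which includes the light chain Igkc. Igkc rose in Model against Sham (log2 3.47, adjusted p = 0.0249) and, with Cd79b and Ebf1, in LQ-40 against Sham (log2 4.44, adjusted p = 0.0243); none of these B lymphocyte calls was made in every fit that left out 1 library, and Igkc was called in neither comparison by limma-voom (adjusted p = 0.162 in Model and 0.117 in LQ-40 against Sham). T lymphocyte markers, 11 genes of which 3 were tested, summed to 2.82 to 17.0 in LQ-40, 5.54 to 8.54 in SQ-3, 2.91 to 15.6 in Model and 1.62 to 4.65 in Sham libraries, and limma called 0 of 3 in each of the 6 comparisons. Endothelial markers, 11 genes, summed to 316 to 418 in LQ-40, 343 to 397 in SQ-3, 326 to 373 in Model and 332 to 428 in Sham libraries. Vwf and Cldn5 rose and Egfl7 fell in Model against Sham, where 20.9% of all tested genes rose and 18% fell. Vwf alone was called, as higher, in LQ-40 and in SQ-3 against Sham, beside 9.83% and 4.86% of all tested genes. Its log2 changes were 1.16, 1.42 and 1.11 in Model, LQ-40 and SQ-3 against Sham (limma adjusted p = 0.00492, 0.00749 and 0.0262). With 1 library left out, 2 of 3, 1 of 1 and 0 of 1 calls were made every time.

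Set against the leukocyte markers, H2-Ab1 was 11.7 to 15.8 times the level of Ptprc per kilobase in LQ-40, 8.40 to 11.5 times in SQ-3, 7.21 to 10.9 times in Model and 4.02 to 14.5 times in Sham libraries. Against Csf1r it was 0.582 to 1.95 in LQ-40, 0.534 to 0.883 in SQ-3, 0.486 to 1.07 in Model and 0.301 to 1.46 in Sham libraries. The Sham range overlapped that of every other group in both ratios. Against Ptprc, all LQ-40 libraries lay above all SQ-3 libraries, by a small margin, and above all Model libraries. Against Csf1r the LQ-40 range overlapped both. The ratios were not tested.

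The genes whose profile over the 12 libraries was most like the mean of the 7 were Ccl5 (Pearson 0.93), Ccr2 (0.91), Il2rb (0.91), Arhgap9 (0.91), Cxcr3 (0.90), Aim2 (0.89), Nkg7 (0.89) and Itgb7 (0.89). Ccl5 is a chemokine of activated T cells, Ccr2 the receptor that brings in monocytes, Il2rb a receptor chain for interleukins 2 and 15, and Cxcr3 a receptor for chemokines that interferon induces. Ccl5 had 1.21, 5.97 and 8.22 scaled FPKM in LQ-40, 2.61, 2.32 and 4.68 in SQ-3, 4.78, 0.976 and 1.71 in Model and 1.46, 0.155 and 0.653 in Sham libraries. As for the class II genes, LQ-40 libraries 2 and 3 and Model library 1 were high. With group means subtracted, the most alike included Prr3, Txndc11, Cd300a, Mta3, Gimap3, Ccl5 and Cxcr3 (Pearson 0.90 to 0.92). These correlations are descriptions over 12 libraries that share groups and cell make-up, and carry no test.

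**Figure D5:**
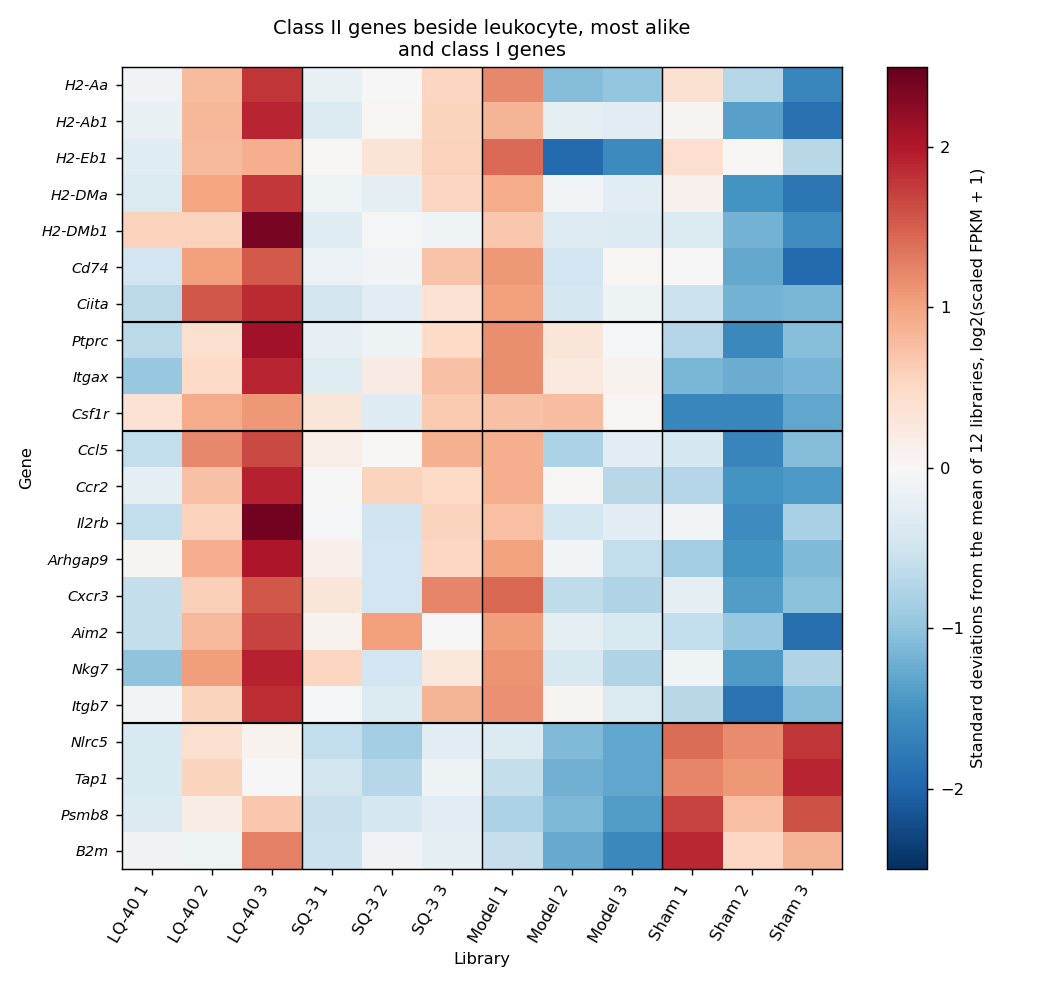
Standardized log2(scaled FPKM + 1) of the 7 class II genes, 3 leukocyte genes, the 8 genes most alike and 4 class I genes (rows) in 12 libraries (columns, lines between groups). LQ-40 libraries 2 and 3 and Model library 1 are high for the class II genes, and the 3 Sham libraries are high for Nlrc5 and Tap1.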

How the data were processed

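RNA from mouse hearts was measured in 12 libraries, and 2 rat culture libraries were read only for the closing values. The authors deposited FPKM values per gene with gene lengths. Builds mm10 and Rnor_6.0 and the tools featureCounts 1.5.0-p3, HISAT2 2.0.5 and fastp appear, with no roles, in the submitters' processing notes; for annotation and strand setting, the entry is: not given in the sources used here. Each FPKM value times gene length was a whole multiple of 1 step per library (100% of values, tolerance 0.02 read), which gave reads of 13085370 to 16698987 per mouse library. For each library a factor was taken as the median ratio to the genes' geometric means over 10422 genes, FPKM was divided by it, and log2(scaled FPKM + 1) of 13000 genes was fitted with limma 3.58.1 in R 4.3.3, all 4 groups together, with Benjamini-Hochberg adjustment over all of them and a threshold of 0.05. Folds on this scale understate the change of low genes. The fit was tested on simulated data. The alternatives were other scalings, filters and pseudocounts, a replicate block, 2 groups alone, each library left out, and limma-voom on recovered reads. TMM factors had been listed for limma-voom; median-of-ratios library sizes were used in their place. Symbols written as dates (11) were restored from gene IDs, March1 among them. Named genes were the 7 members, up to 4 called genes of each list per comparison by smallest p and up to 2 not called, and the 8 most alike by each Pearson measure; further genes in counts of 5 or fewer, and the H2 genes beside the members, were named after their values were seen; members and lists were chosen with earlier results of these data known. Intervals of read shares cover counting error only. One result is not reported here.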

Additional observations from a re-analysis of the deposited data

Results flagged for a closer look

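The rat culture libraries, outside the mouse comparisons, held a few reads of class II genes above the 3 that a count of 0 allows. RT1-DMa, the rat counterpart of H2-DMa, had 18 reads in the 2D library and 1 in the 3D library. Rat Cd74 had 8 reads in the 3D and 4 in the 2D library, and rat Ciita had 5 in the 3D and 7 in the 2D library. RT1-Ba, RT1-Bb and RT1-DMb had 0 reads in both. The libraries held 11910160 reads (3D) and 13262387 reads (2D); with 1 library per group there is no test.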

How the results depend on the processing

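The number of class II genes called in LQ-40 against Sham was 2. It was 1 with FPKM as deposited and with quantile normalization, 0 with no filter on low values and 0 with the 2 groups fitted alone, 2 with limma-voom, and 1 without LQ-40 libraries 1 and 3, a fit added after seeing the data; with each library left out in turn it was 0 to 5. With each library left out it was 0 to 3 in Model against Sham and 0 to 1 in LQ-40 against Model. The moderated F called 1 gene, and 0 with quantile normalization, no filter or a mean of at least 5 FPKM. The cause was not tested.

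Replicate numbers did not pair the libraries: correlations of deviations between same-numbered libraries were -0.27 to 0.22, 3 of 18 were over 0.1, and 1 of 12 libraries correlated best with its own number. With the replicate block, 1 class II gene was called in LQ-40 against Sham and the moderated F called 0; over all genes the block called 29 in SQ-3 against Model, beside 45 without it.

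Leaving out 1 library turned these log2 changes: H2-Aa in Model against Sham -0.40 to 0.98; in SQ-3 against Model H2-Aa -0.0067 to 1.23, H2-Ab1 -0.26 to 0.34, H2-DMa -0.27 to 0.18, H2-DMb1 -0.27 to 0.14, Cd74 -0.38 to 0.37 and Ciita -0.24 to 0.058; and H2-Eb1 in LQ-40 against SQ-3 -0.12 to 0.99. Without Model libraries 2 and 3, added after seeing the data, H2-Eb1 was 2.73 in Model against Sham, -1.71 in LQ-40 against Model and -1.997 in SQ-3 against Model, and H2-Aa was -0.40 in LQ-40 against Model and -1.19 in SQ-3 against Model.

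Counts over all genes moved by over 1.5 times in some fits: LQ-40 against Sham 2049, with 230 for 2 groups alone and 774 with no filter; LQ-40 against Model 87, with 14 for 2 groups alone, 48 with no filter and 17 without LQ-40 libraries 1 and 3; SQ-3 against Sham 868, with 262 with no filter; Model against Sham 5053, with 3291 at a mean of at least 5 FPKM; LQ-40 against SQ-3 0, with 2 with no filter. With 1 library left out the ranges were 408 to 4372, 31 to 155, 227 to 444, 3288 to 4498 and 0 to 1 in the same order, and 12 to 26 in SQ-3 against Model. The fits with no filter tested 29037 genes and those at a mean of at least 5 FPKM 6813, beside 13000 in the others. At that mean 48.3% of genes were called in Model against Sham, beside 38.9% in the main fit. In SQ-3 against Sham 632 rose and 236 fell, and with no filter 129 rose and 133 fell. Low reads limit H2-DMb1 in Sham libraries and H2-Eb1 in Model libraries 2 and 3.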

Other observations

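A pair of class I-like genes of the same chromosome region split the libraries across groups. H2-T22 had 7.62, 1.13 and 12.7 scaled FPKM in LQ-40 libraries 1 to 3, 1.05, 0.669 and 7.87 in SQ-3, 6.49, 0.784 and 5.88 in Model and 1.76, 0.957 and 2.16 in Sham libraries. H2-T23 had 9.25, 1.68 and 18.5 in LQ-40, 1.02, 1.17 and 12.1 in SQ-3, 12.2, 1.02 and 9.06 in Model and 2.16, 2.24 and 3.28 in Sham libraries. The same 5 libraries were high for both genes, at 5.88 to 12.7 and 9.06 to 18.5, and the other 7 were at 0.669 to 2.16 and 1.02 to 3.28. H2-Oa, a chain of the H2-O pair that restrains H2-DM, had at most 0.720 scaled FPKM in any library.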
